A study of Mus musculus with 22 samples.

Results

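Multiciliated cells carry tufts of motile cilia, and a small group of genes marks them outside the large dynein, Cfap, radial spoke and tektin families. A set of 10 such genes, Enkur, Ccdc153, Tmem212, Sntn, Meig1, 1700012B09Rik, Fam183b, Tppp3, Lrrc23 and Armc3, were followed in the lumbar spinal cord of 22 mice. They were taken by symbol and had been chosen by their log2 CPM (CPM is the reads of a gene scaled to a fixed library size) across the 4 groups described next, so their differences between groups are given as a description. Where members past a limit are counted, early, late, over both timings or between them, the choice of the genes used these values and nothing is read from the count. Of the 10 genes, Sntn was not analysed here, and the other 9, of 17306 genes in all, were each abundant enough to be among the 16765 genes fitted.

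Every mouse was a wildtype C57BL6J of 12 to 14 weeks that had received 1 mg of monoiodoacetate (MIA) in the knee, an inhibitor of glycolysis that damages cartilage and gives lasting joint pain. Spinal cord segments L4-L6 were collected on day 30. The paper gives the sequenced tissue as dorsal horn quadrants on the injured side, and does not say how much of the central canal they held. SAFit2, an inhibitor of the stress-related co-chaperone FKBP51, was given at 100 mg/kg in a slow-release phospholipid gel (VPG), and Vehicle mice received the gel alone. Early SAFit2 (5 mice) and Early Vehicle (6 mice) were injected on days -3 and 4 from MIA, and Late SAFit2 (5 mice) and Late Vehicle (6 mice) on days 20 and 27. For the early mice the sample labels give the first day as 3 where the design of the series gives -3, and the titles of the 5 Early SAFit2 mice read SAFit1. All mice had MIA, so no level without joint injury is at hand. The labels call early and late batches, so timing and batch cannot be told apart. The comparisons ask what stays different after early treatment and what differs under late treatment, when the gel was given shortly before collection.

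In the cord, motile cilia belong to the ependymal cells that line the central canal. Each such cilium is built on an axoneme, a ring of microtubule doublets with dynein motors, radial spokes and proteins held inside the microtubules. The program is set by the transcription factor Foxj1 together with RFX factors, which bind a DNA motif called the X-box near the start of many cilium genes. In bulk tissue, fewer cells of a type and less RNA per cell cannot be told apart.

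The X-box appears close to the start site of several members. It was searched as GTNNCC, then up to 3 bases, then NGNAAC, on both strands, together with the shorter motif GTTGCC, which can overlap it, and the forkhead core TGTTTAC. Windows of 300 bases, from 250 before to 50 after each start, came from RefSeq (GRCm38.p6) and covered 9 of the 10 genes, Sntn included. Of these 9, an X-box was found in 5 (Enkur, Fam183b, Lrrc23, Ccdc153 and Meig1), or in 5 of their 11 windows, where 5.25% of all 32851 windows hold it. GTTGCC was found in 6 of the 9 genes (12.5% of all windows) and the forkhead core in 1, Sntn (3.65%). Among other cilium genes, 23 of 65 windows of axoneme and motility genes and 6 of 21 windows of primary cilium genes held an X-box. The matches are strings of letters and were not tested for binding.

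Enkur carried a pair of X-boxes in tandem, from base -26 to -14 and from -12 to 1, with the start site counted as 0. In Fam183b the X-box lay at -16 to -4 and matched on both strands, in Lrrc23 at -164 to -152 and in Ccdc153 at -133 to -122. In Meig1 it followed one of its start sites, at 37 to 49. The stretches from 180 bases before to 20 bases from the start are shown for the 4 genes with an X-box upstream, with X-boxes and GTTGCC in capitals, 5′ to 3′ on the strand of the gene. They are chr2:21205346-21205545 (minus strand) for Enkur, chr11:58801941-58802140 (minus) for Fam183b, chr6:124779708-124779907 (minus) for Lrrc23 and chr9:44240497-44240696 (plus) for Ccdc153.
Enkur: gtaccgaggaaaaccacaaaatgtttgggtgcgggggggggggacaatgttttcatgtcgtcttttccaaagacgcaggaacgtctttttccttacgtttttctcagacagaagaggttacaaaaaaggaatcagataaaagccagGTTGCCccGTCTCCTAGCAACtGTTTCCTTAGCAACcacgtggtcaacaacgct
Fam183b: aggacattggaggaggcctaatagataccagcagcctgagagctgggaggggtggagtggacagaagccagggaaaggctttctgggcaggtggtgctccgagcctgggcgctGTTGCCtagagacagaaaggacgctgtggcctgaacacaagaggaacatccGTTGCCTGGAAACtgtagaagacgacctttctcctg
Lrrc23: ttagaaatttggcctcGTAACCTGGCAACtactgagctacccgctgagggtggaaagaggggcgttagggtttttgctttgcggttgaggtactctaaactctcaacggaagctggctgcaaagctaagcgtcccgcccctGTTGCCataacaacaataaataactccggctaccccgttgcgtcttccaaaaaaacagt
Ccdc153: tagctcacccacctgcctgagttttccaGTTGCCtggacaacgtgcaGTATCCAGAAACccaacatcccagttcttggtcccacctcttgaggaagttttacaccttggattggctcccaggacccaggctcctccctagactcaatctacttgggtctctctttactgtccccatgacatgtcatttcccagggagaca

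Levels in Vehicle mice separated Tppp3 from the rest. Over the 12 Vehicle mice and per kilobase of the longest transcript (GENCODE, GRCm38), Tppp3 reached 100.0 CPM per kb, at the 96.7 percentile of the genes fitted. Tppp3 encodes a tubulin-binding protein that ependymal cells share with other cell types. The other 8 genes lay between 0.38 CPM per kb (Armc3) and 6.25 CPM per kb (Ccdc153), next to 7.92 CPM per kb for Foxj1. Ccdc153 and Fam183b (6.19 CPM per kb) were close to each other at the top, followed by Enkur (3.05), 1700012B09Rik (2.33), Tmem212 (1.94), Lrrc23 (1.74), Meig1 (1.13) and Armc3. With SDs of 0.39 to 2.30 on the log2 scale within a Vehicle group, neighbours from Ccdc153 down to Meig1 did not differ beyond their spread. The step from Meig1 to Armc3 was larger than their SDs (0.39 and 0.92 for Meig1, 0.41 and 0.66 for Armc3). These genes had few reads: of libraries with 11352989 to 24433349 reads on genes, Meig1 took 4 to 30 reads in a Vehicle mouse and Enkur 14 to 135.

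Enkur encodes enkurin, an adaptor protein of cilia and sperm that binds calmodulin and TRPC channels. The gene lies at chr2:21180731-21205365 on the minus strand, its longest transcript has 5 exons, and its span overlaps the small gene Gm23007 on the same strand. Overlaps were taken over whole gene spans, and whether the 2 genes share counted reads was not tested. Reads of Enkur in the 5 Early SAFit2 mice were 9, 10, 5, 2 and 17. In Early Vehicle the lowest mouse had 14 reads, the median was 52.5 and the highest was 115. Early Vehicle 1 was the one control within the range of the treated mice, and the other 5 were above all of them. In CPM, the means were 3.22 in Early Vehicle and 0.483 in Early SAFit2. On the log2 scale the difference was -2.27 (SE 0.58), 4.83-fold lower in Early SAFit2.

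Late treatment gave another picture for Enkur. Late SAFit2 mice had 54, 26, 38, 48 and 43 reads. Late Vehicle mice ranged from 19 reads through a median of 61.5 to 135. The Late SAFit2 mice lay inside this range, and the log2 difference was 0.08 (SE 0.58). The early minus the late effect was -2.35 (SE 0.82), and Late Vehicle stood 0.27 (SE 0.55) above Early Vehicle on the log2 scale. With values corrected for GC content and transcript length, the early difference was -2.16 (SE 0.51), the late one turned to -0.30 (SE 0.51) and that between them was -1.85 (SE 0.72). Early SAFit2 was thus the one group with a mean below 1 CPM.

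**Figure D1:**
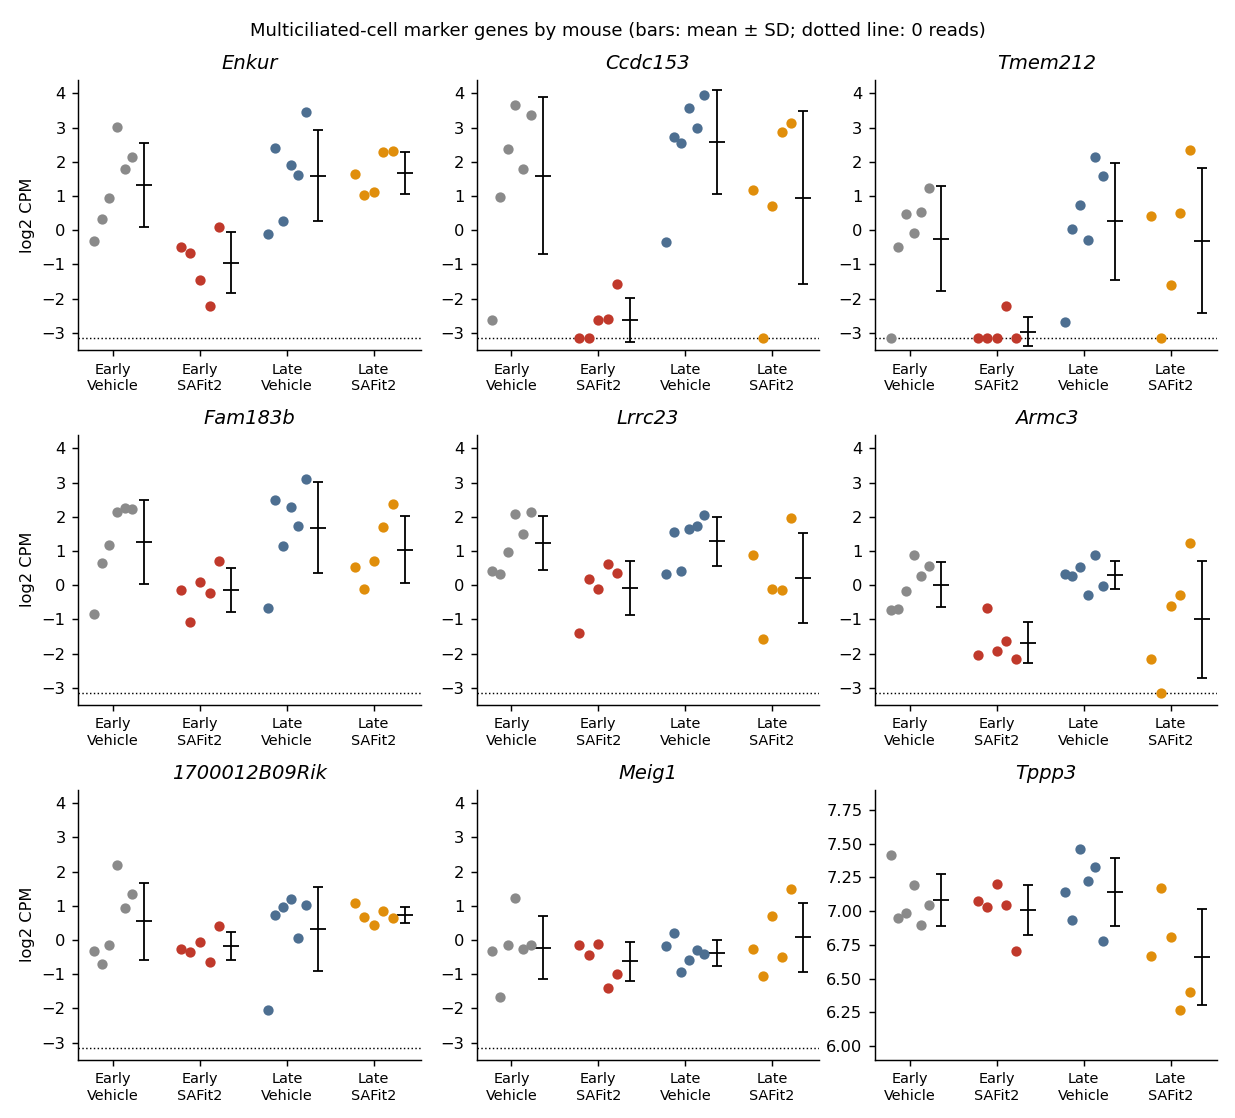
Log2 CPM (y axis) of the 9 genes in each of 22 mice, in 4 groups (x axis); points are mice, bars the mean ± SD, the dotted line 0 reads, and the panel of Tppp3 has its own scale. For Enkur, Ccdc153 and Tmem212, 5 of 6 Early Vehicle mice sit above all 5 Early SAFit2 mice.

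Ccdc153 and Tmem212, which encode a coiled-coil and a membrane protein used as ependymal markers, came closest to absence after early treatment. Ccdc153 had 0, 0, 1, 1 and 4 reads in Early SAFit2, against 1 in the lowest, 96 in the median and 273 in the highest Early Vehicle mouse. As with Enkur, only Early Vehicle 1 lay inside the range of the treated mice. Pooled over mice, 671 reads in Early Vehicle faced 6 reads in Early SAFit2, a ratio of 81.1 at equal depth (exact 95% interval 37.1 to 222, counting error only). Early SAFit2 5 held 4 of the 6 reads, and without it the ratio was 197 (interval 54.4 to 1633). The fitted log2 difference was -4.22 (SE 0.98), a value that depends on the prior count behind the deposited scale. A fit to the whole reads (limma voom) gave -5.30 with a much wider SE of 2.86.

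Tmem212 was at 0 reads in 4 of 5 Early SAFit2 mice and at 2 in the other. A count of 0 over the group would allow up to 0.0357 CPM, taken without scaling factors. Early Vehicle mice had 0 reads in the lowest, 17 in the median and 60 in the highest mouse, and the mouse at 0 was again Early Vehicle 1. The pooled ratio was 50.4 (interval 13.7 to 420.5) and the log2 difference -2.71 (SE 0.85), or -4.07 (SE 1.79) in the fit to whole reads. Both reads of the treated group came from Early SAFit2 4, and without it Early Vehicle was at least 26.7-fold higher than the limit of 3 reads over the other 4 treated mice. Tmem212 overlaps Gm26040 on the opposite strand. The libraries were directional, but whether counting used the strand is not given in the sources used here. Whether the pair shares counted reads was not tested.

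After late treatment both genes were spread from 0 upward. Late SAFit2 mice had 39, 0, 28, 72 and 78 reads of Ccdc153, and Late Vehicle mice 16 in the lowest, 125 in the median and 233 in the highest. For Tmem212 the treated mice had 22, 0, 4, 13 and 44 reads, and Late Vehicle ranged from 1 through 21.5 to 74. The groups overlapped for both genes, and Late SAFit2 2 was the mouse at 0 in each. The log2 differences were -1.64 (SE 0.98) for Ccdc153 and -0.56 (SE 0.85) for Tmem212. Without Late SAFit2 2, the late difference of Ccdc153 was -0.61, and that of Tmem212 was 0.15. Without Late Vehicle 1 they were -2.22 and -1.15.

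Fam183b, Lrrc23 and Armc3 also sat lower in early-treated mice, by less. Fam183b encodes a protein held inside ciliary microtubules, Lrrc23 a part of the radial spoke head, and Armc3 an armadillo-repeat protein of cilia and sperm. Fam183b had 12, 7, 19, 14 and 27 reads in Early SAFit2 and 9 to 120 reads, with a median of 57, in Early Vehicle. Lrrc23 had 4, 20, 16, 27 and 21 reads against 23 to 114, with a median of 47. Armc3 had 2, 10, 3, 4 and 2 reads against 10 to 36, with a median of 19.5. In each of the 3 genes, 4 of 6 Early Vehicle mice lay above all treated mice after scaling to CPM, with Early Vehicle 1 and 2 inside their range. Their early log2 differences were -1.40 (SE 0.59), -1.31 (SE 0.51) and -1.70 (SE 0.55), in the same order.

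Late differences of these 3 genes pointed the same way. They came to -0.64 (SE 0.59) for Fam183b, -1.08 (SE 0.51) for Lrrc23 and -1.29 (SE 0.55) for Armc3. Armc3 had 2, 0, 10, 7 and 20 reads in Late SAFit2 and 11 to 30 reads, with a median of 21, in Late Vehicle. Of the 5 treated mice, 4 were below all controls for Armc3, while Late SAFit2 5 was above all of them. Lrrc23 had 31, 3, 15, 8 and 34 reads in Late SAFit2 and 21 to 59, with a median of 49.5, in Late Vehicle. Of these treated mice, 3 were below all controls. Fam183b had 24, 11, 28, 31 and 45 reads against 12 to 107, with a median of 74.5. Late SAFit2 2 was the lowest treated mouse for all 3 genes, and without it the late values were -0.36 for Fam183b, -0.63 for Lrrc23 and -0.75 for Armc3. Without Late Vehicle 1, that of Fam183b was -1.11.

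1700012B09Rik, a gene of little-known function found in multiciliated cells, and Meig1, known from sperm formation, were nearer between the groups. For 1700012B09Rik the early log2 difference was -0.73 (SE 0.51), with 11, 13, 17, 10 and 22 reads in Early SAFit2 and 10 to 64 in Early Vehicle. Its late difference was 0.42 (SE 0.51), and -0.06 without Late Vehicle 1. Meig1 differed by -0.40 (SE 0.46) early and by 0.45 (SE 0.46) late, and the sign of its late value turned with correction for GC content and length (-0.01). Meig1 had 12, 12, 16, 5 and 7 reads in Early SAFit2 and 4 to 30 in Early Vehicle.

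Tppp3 took another course than Enkur. Early SAFit2 mice had 134, 131, 147, 132 and 104 CPM, and Early Vehicle mice 119 in the lowest, 129 in the median and 170 in the highest, a log2 difference of -0.07 (SE 0.14). Late SAFit2 mice had 101, 144, 112, 76.8 and 84.2 CPM, and Late Vehicle mice ranged from 109 through 145 to 176. Of the 5 treated mice, 3 were below all controls, and the late log2 difference was -0.48 (SE 0.14). Corrected for how a library followed GC content and transcript length, it was -0.19 (SE 0.11). Tppp3 has a GC content of 57.0%, against a median of 49.7% over the genes fitted. The slope of a library's values on GC content had a median of 0.30 (log2 per 10% GC) in Late Vehicle and -0.33 in Late SAFit2, where the early groups had medians of 0.01 and 0.07.

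**Figure D2:**
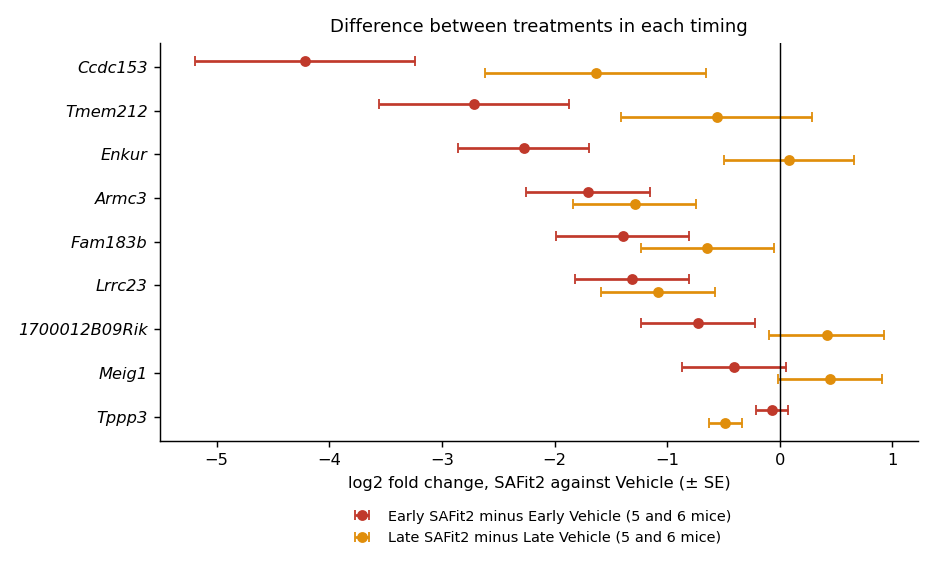
Log2 fold change of SAFit2 against Vehicle (x axis, ± SE) for the 9 genes (y axis), early in red and late in orange, 5 and 6 mice in each comparison. The early points run from -4.22 for Ccdc153 to -0.07 for Tppp3, and the late points from -1.64 to 0.45.

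Counted over the group, 9 of 9 genes were lower in Early SAFit2, with a median log2 difference of -1.40, where the median over all genes fitted was 0.01. Of the 9, 6 lay past a nominal limma p of 0.05 in the lower direction, where 1.54% of all genes did. With Benjamini-Hochberg adjustment, limma called 0 of 16765 genes in the early comparison (0%), at a nominal p under 0.05 it listed 416, and limma voom on whole reads called 0 and listed 423. In the late comparison 6 of 9 were lower, with a median of -0.56 against -0.05 over all genes, and from -1.11 to -0.36 with a mouse left out. Of the 9, 3 were past the nominal limit in the lower direction (19.0% of all genes) and 1, Tppp3, past the adjusted limit with a 1.2-fold change (12.1% of all genes). That limit was passed by 2021 genes in all late, but by 1 gene without any one of Late Vehicle 1, 3, 4 or 5 or Late SAFit2 2 or 5, by 8 without Late SAFit2 4, and by up to 4971 with another mouse left out.

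Tppp3 did not keep that late call in limma voom, in the 11 late mice alone, after correction for GC content and length, or without any one of Late Vehicle 1, 3, 4 or 5 or Late SAFit2 2, 4 or 5. Over both timings together, 7 of 9 were past the nominal limit and lower, all but Meig1 and 1700012B09Rik, where 7.18% of all genes were. The difference between the early and the late effect was lower for 8 of 9, with a median of -0.85 (0.05 over all genes). This median was -0.43 after correction for GC content and length, and -1.18 to -0.50 with a mouse left out. In this difference 1 member, Enkur, passed the nominal limit in the lower direction (10.9% of all genes). No member, by limma or by limma voom, was called between Late Vehicle and Early Vehicle (9.11% of all genes), and none was past a nominal p of 0.05 by limma; their median was 0.27. The vehicle groups serve the treated groups as controls, so the early effect, the late effect and their difference share mice.

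The remaining cilium genes were read from lists. Of 80 axoneme and motility genes, 79 were fitted. In Early SAFit2 28 of them were lower at a nominal limma p under 0.05, where 1.54% of all genes were. At this limit 0 were higher, and 0 passed adjustment. Their median log2 difference was -0.70, and 73 of 79 were negative. The genes of lowest p were the dynein heavy chains Dnah12 at -3.05 (SE 0.62) and Dnah6 at -2.43 (SE 0.58), with adjusted p of 0.665 and 1.00 by limma. On the other side, Cfap61 stood at 0.56 (SE 0.57) and Dnah7a at 0.44 (SE 0.53), neither past the nominal limit. Summed over the list, Early SAFit2 mice had 176 to 230 CPM and Early Vehicle mice 234 to 366 CPM. Cfap73 was at 0 reads in all 5 Early SAFit2 mice and had 27 reads over the 6 Early Vehicle mice, at least 6.53-fold higher at equal depth than the limit of 3 reads over the treated group. Early Vehicle 6 held 14 of these reads, and without it the bound was 3.98-fold.

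In late-treated mice, 14 of 79 axoneme genes were lower at the nominal limit, where 19.0% of all genes were, and 1 was higher, with a median of -0.40. Of the 79, 3 fell past the adjusted limit by limma, where 12.1% of all genes passed it in either direction, namely Dnah11 (-2.23, SE 0.70, adjusted p = 0.0441), Drc7 (-1.80, SE 0.57, adjusted p = 0.0446) and Hydin (-1.66, SE 0.53, adjusted p = 0.0451). They code for a dynein heavy chain, a dynein regulator and a central pair protein, and they were named after their values were seen. With the correction for GC content and length their values were -2.28, -1.55 and -1.59, with adjusted p of 0.142 to 0.201 by limma. The corrected late comparison called 0 of 16213 genes by limma (lowest adjusted p = 0.0911, with 2532 genes at a nominal p under 0.05), and 117 with the replicate block, whereas limma voom on uncorrected reads called 876 of 16765.

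**Figure D3:**
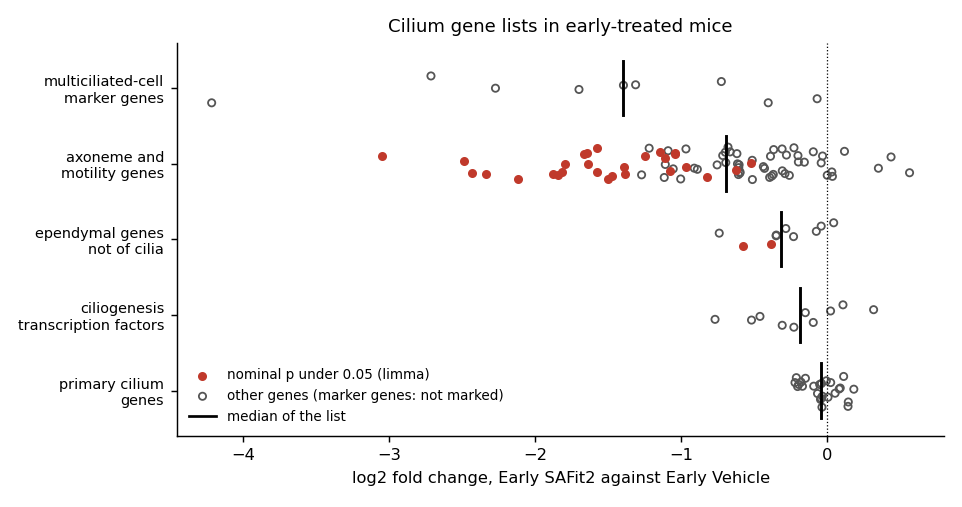
Log2 fold change of Early SAFit2 against Early Vehicle (x axis) for each gene of 5 lists (y axis); in the 4 other lists filled points passed a nominal limma p of 0.05 and open points did not, the 9 marker genes are all drawn open whatever their p, and bars are medians. Medians run from -1.40 for the marker genes and -0.70 for axoneme genes to -0.04 for primary cilium genes.

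In the early comparison, median differences were smaller among genes upstream of the cilium and genes of the ependymal cell body. Of 12 ciliogenesis transcription factors 10 were fitted, with an early median of -0.19. In the early comparison 0 of the 10 passed the nominal limit, where 416 of all 16765 genes did. After the GC and length correction 1 of the 10 was lower at that limit, where 344 of 16213 genes were. Foxj1, the master factor of motile ciliogenesis, had a mean log2 CPM of 4.08 ± 0.21 (SD, n = 6) in Early Vehicle and 4.11 ± 0.33 (SD, n = 5) in Early SAFit2. The factors with the lowest early p were Rfx4 (-0.23, SE 0.11) and Gmnc (-0.77, SE 0.44) on the lower side and Myb (0.32, SE 0.50) and Deup1 (0.11, SE 0.62) on the higher side; Gmnc is a coregulator and Deup1 a centriole protein, listed with the factors for their part in making cilia. Late, the median of the 10 was -0.41, next to -0.40 for the axoneme genes. After the GC and length correction it was -0.21, against -0.53 for the axoneme genes. After late treatment Foxj1 fell by 0.77 on the log2 scale (SE 0.19, adjusted p = 0.0324 by limma) and Rfx1 by 0.97 (SE 0.26, adjusted p = 0.0331). Of all genes, 12.1% passed that limit with a 1.2-fold change in either direction. Late calls over all genes numbered 2021 in the main fit and 1 without Late Vehicle 1. With GC content and length corrected, the late values of Foxj1 and Rfx1 became -0.20 (SE 0.16, adjusted p = 0.550) and -0.40 (SE 0.21, adjusted p = 0.356).

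The 10 ependymal genes outside the cilium gave an early median of -0.32, and 9 of the 10 were negative. How much other cell types add to the bulk levels of these genes was not tested. Of the 10, Nnat (-0.57, SE 0.19) and Hspa2 (-0.39, SE 0.15) were lower at the nominal limit (1.54% of all genes), with adjusted p of 1.00 by limma. Prom1, a membrane protein, stood at 0.04 (SE 0.20). The summed level of the 10 genes ran from 424 to 556 CPM in Early SAFit2 and from 487 to 678 CPM in Early Vehicle. After late treatment Pltp (-0.63, SE 0.19) and Rarres2 (-0.86, SE 0.28) fell past the adjusted limit by limma (0.0407 and 0.0460). After the GC correction they stood at -0.27 and -0.84 (adjusted p of 0.326 and 0.155). Of 25 genes of the immotile primary cilium, which neurons and glia carry, 0 passed the nominal limit in the early comparison (416 of all 16765 genes did). Their median was -0.04. In the late comparison Ift74 and Rpgrip1l were higher (0.82 and 0.41 on the log2 scale, adjusted p = 0.0324 and 0.0443 by limma). After the correction they stood at 0.44 and 0.06 (adjusted p = 0.125 and 0.837). The late calls of Pltp, Rarres2, Ift74 and Rpgrip1l come from the same fit, whose calls depended on single late mice as given above.

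Within groups the members varied together from mouse to mouse, with Tppp3 apart. Each value was taken as its deviation from the mean of its own group, over all 22 mice. Pearson r between pairs of the 9 genes ran from -0.63 to 0.87 over 36 pairs, with a median of 0.47. Ccdc153 and Fam183b gave 0.87 and Ccdc153 and Tmem212 0.85. Tppp3 was negative with all 8 others, from -0.63 with Ccdc153 to -0.09 with 1700012B09Rik. All points of a mouse come from 1 library and share its depth and base composition, so these are descriptions with no test.

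**Figure D4:**
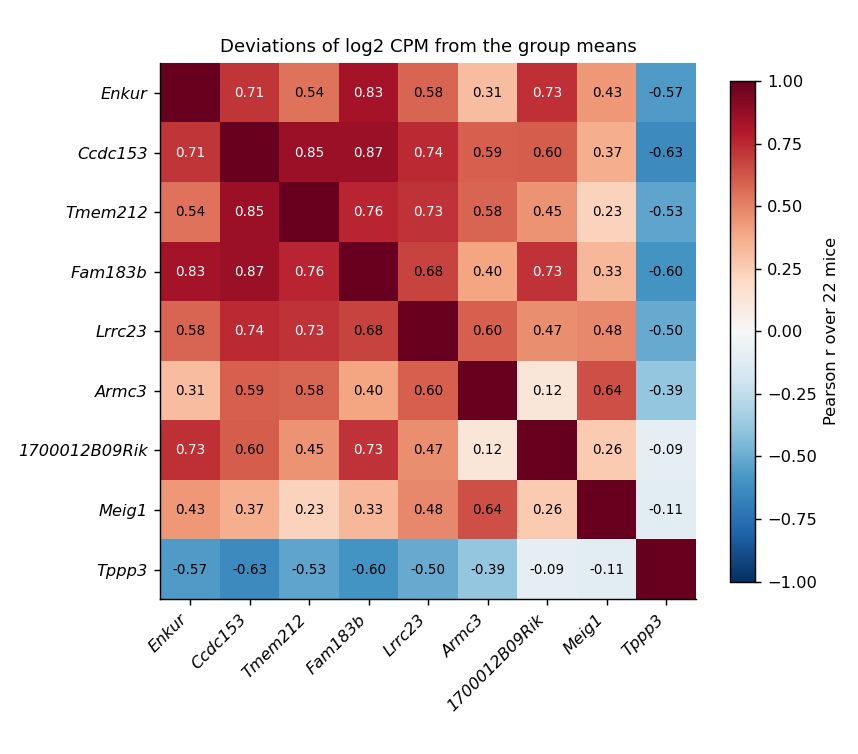
Pearson r over 22 mice between the deviations of log2 CPM from the group means, for each pair of the 9 genes (both axes list genes; colour gives r). Tppp3 forms the blue row and column, from -0.63 to -0.09, and the other genes are positive with each other, from 0.12 to 0.87.

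Enkur was most like Rmi1, Rbbp9, Dnajc28, Fam183b and Fhad1, in this order, of 16764 genes. Their r with Enkur was 0.85, 0.85, 0.84, 0.83 and 0.83 (Spearman rho 0.87, 0.86, 0.77, 0.88 and 0.81). Fhad1 encodes a forkhead-associated domain protein. Among the members, 1700012B09Rik came at rank 162 (r = 0.73, rho = 0.69), Ccdc153 at 257 (0.71 and 0.78), Lrrc23 at 1318 (0.58 and 0.63), Tmem212 at 1694 (0.54 and 0.51), Meig1 at 2808 (0.43 and 0.34), Armc3 at 4060 (0.31 and 0.31) and Tppp3 at 15216 (-0.57 and -0.58). Without Early SAFit2 3 and 4, the 2 mice farthest from the median of Enkur, r was 0.87 for Fam183b, 0.75 for Ccdc153 and -0.57 for Tppp3.

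Enkur also moved with the axoneme list as a whole. With the summed CPM of the 79 axoneme genes its r was 0.85 (rho 0.83), with primary cilium genes 0.69 (0.63) and with ependymal genes outside the cilium 0.62 (0.60). With the 10 ciliogenesis transcription factors r was 0.06 (0.06). Endothelial markers gave -0.55 (-0.71), and the other cell type lists gave r from -0.39 to 0.38. The reads of a library on genes gave -0.45 (-0.40), and its slope on GC content gave -0.66 (-0.66), with -0.66 for Fam183b and 0.66 for Tppp3. After correction for GC content and length, chosen after seeing the data, r with Enkur was 0.79 for Fam183b and -0.35 for Tppp3. The part of depth was not tested.

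**Figure D5:**
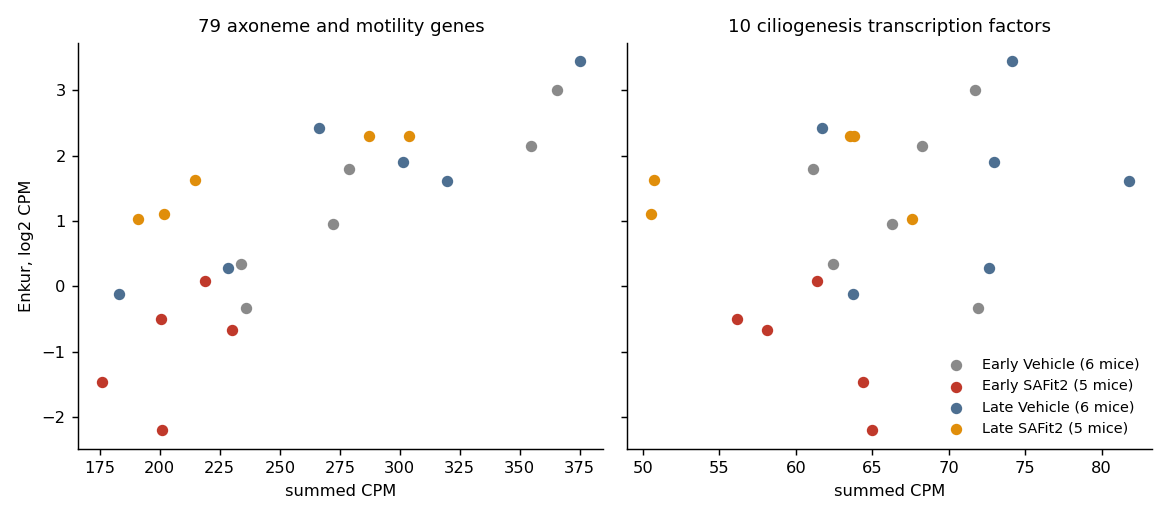
Log2 CPM of Enkur (y axis) against the summed CPM (x axis) of 79 axoneme and motility genes, left, and of 10 ciliogenesis transcription factors, right, with each of the 22 mice a point coloured by group. On the left no Early SAFit2 mouse exceeds 230 CPM and no Early Vehicle mouse is below 234 CPM.

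A few mice stood apart for the members. Early Vehicle 1 had 1 read of Ccdc153 and 0 of Tmem212, Late Vehicle 1 had 16 and 1, and Late SAFit2 2 had 0 of each and 0 of Armc3. Summed over axoneme genes, Late Vehicle 1 (183 CPM) and Late SAFit2 2 (191 CPM) were the lowest of their groups, and Early Vehicle 1 (236 CPM) was next to the lowest. For Foxj1 these mice had 17.6, 23.3 and 14.4 CPM, inside the ranges of their groups. Leaving out Early Vehicle 1 moved the early log2 difference of Enkur to -2.60, the lowest over 22 such fits, of which the highest was -1.93. Other cell types were checked as well. Early, 1 of 5 astrocyte, 1 of 5 meningeal fibroblast and 1 of 3 choroid plexus markers were lower at the nominal limit (1.54% of all genes). Of the neuron, oligodendrocyte, microglia, endothelial, skeletal muscle, red cell or lumbar cord markers, 0 passed it.

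Late, 5791 of all 16765 genes passed the nominal limit by limma (2609 higher and 3182 lower), and 12.1% the adjusted limit with a 1.2-fold change. Markers of several cell types were among those past the nominal limit. These were 1 of 5 neuron markers (higher), 1 higher and 2 lower of 5 astrocyte markers, 1 higher and 1 lower of 5 each for oligodendrocytes and microglia, 1 of 4 endothelial and 1 of 3 choroid plexus markers (both lower and past adjustment by limma), and 0 of the meningeal fibroblast, red cell and lumbar cord markers. Skeletal muscle markers summed to 119 CPM in Late SAFit2 3 and 88.8 CPM in Late SAFit2 5, where Late Vehicle had 1.57 to 3.74 CPM, and all 4 markers leaned higher late, 3 of them at the nominal limit. Late SAFit2 2 had the lowest meningeal fibroblast sum of all mice (53.3 CPM) and the highest neuron sum (7316 CPM), and Late SAFit2 5 had the highest meningeal sum of its group (595 CPM). No marker of these lists was at 0 in all mice of a group. Their part in the late values was not tested. Lumbar cord markers, Hox10 genes and motor neuron genes, summed to 198 to 406 CPM over all mice, and choroid plexus markers to 6.80 to 15.6 CPM.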

How the data were processed

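Lumbar spinal cord RNA of 22 mice was sequenced, 1 library per mouse, and all 22 sample columns of the table were used. The authors trimmed with Trimmomatic, aligned to mm10 with HISAT2 (per the submitters' processing notes), counted genes with featureCounts and scaled with edgeR. The deposited values are log2 CPM with a floor of -3.154 at 0 reads. Reads worked back from them were whole in 100.0% of cases (tolerance 0.02 reads). Groups came from the sample titles, with the treatment of the Early SAFit2 mice taken from the treatment label.

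Genes at log2 CPM of at least -1 in 5 libraries (16765 genes) were fitted with limma 3.58.1 in R 4.3.3 (4 group means, variance trend), with Benjamini-Hochberg adjustment. Fold changes are on the log2 scale with that prior. The fit was tested on simulated data. Descriptions used Python 3.11.15, pandas 2.3.3 and scipy 1.17.1. Few reads per member limit precision, and intervals cover counting error only. The correction took loess trends (span 0.5) on GC content and length of GENCODE M21 transcripts for 16213 genes.

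The members, lists and tests were chosen with earlier results of these data known. Named genes were the members, the 5 genes most like Enkur and, of each cilium list, the 2 of lowest early p per direction. Foxj1, Cfap73 and the list genes called late were named after their values were seen. Alternatives were no filter, a pseudocount of 1 CPM, limma voom, median centring, 1 timing alone, the replicate number as a block, the correction with and without it, and each mouse left out. Same-numbered mice were not treated as pairs in the main fit.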

Additional observations from a re-analysis of the deposited data

Results flagged for a closer look

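Of 36 sets of values (9 genes in 4 groups of 5 or 6 mice), 3 had a mouse far from the rest of its group, by the share of the range that its gap to the nearest mouse takes. Chance alone flags about 1 set in 20 where values are not tied. Late Vehicle 1 was low for 1700012B09Rik, with a log2 CPM of -2.06 (3 reads) where the other 5 mice lay between 0.06 and 1.19. The same mouse was low for Ccdc153, at -0.33 (16 reads) where the others lay between 2.56 and 3.97. Early SAFit2 4 was high for Tmem212, at -2.20, which is 2 reads where the other 4 mice had 0. With those 4 tied, any read in this mouse would have been flagged.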

How the results depend on the processing

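All 9 early log2 differences were negative in every alternative, with the exception of Tppp3 in 1 fit with a mouse left out (0.01). The number of members past a nominal p of 0.05 in the early comparison ran from 4 (limma voom) to 6, and from 5 to 6 with a mouse left out. Of 1305 single values under alternatives, 7 moved by over 1 SD within groups. With a pseudocount of 1 CPM the early median shrank to -0.81 and the early values to -1.30 for Enkur, -0.67 for Armc3, -0.91 for Tmem212 and -2.18 for Ccdc153. The GC and length correction moved the late value of Tppp3 from -0.48 to -0.19, and to -0.21 with the replicate block.

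The late counts depended on the setting. Members past the adjusted limit numbered 0 in place of 1 in limma voom, in 1 timing alone and after the GC and length correction with and without the replicate block, and 0 to 1 with a mouse left out. Over all genes, 876 were called in limma voom, 0 in 1 timing alone, 117 after the correction with the block and 0 without it. Members lower at the nominal limit numbered 1 in place of 3 with a pseudocount of 1 CPM, in 1 timing alone and after the correction with the block. Of all genes, 3078 and 2817 of 16765 and 1837 of 16213 were lower in these settings. With a mouse left out, 1 to 5 members were lower at it. There were 5 without Late Vehicle 1, where 2611 of all genes were lower. There was 1 without Late Vehicle 5 or Late SAFit2 2, where 2474 and 2925 of all genes were lower. The cause was not tested.

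For the early minus the late effect, the replicate block gave 1 call (Enkur) in place of 0, where 1785 of all 16765 genes were called. At the nominal limit it gave 2 lower in place of 1, where 2254 of all genes were lower. Leaving out a mouse gave 0 to 1 calls (1, Enkur, without Late Vehicle 6, where 2513 of all genes were called). At the nominal limit it gave 1 to 3 lower. There were 3 without Early Vehicle 1 or Late SAFit2 2, where 2141 and 1711 of all genes were lower. Without Late Vehicle 5 there were 2, where 1417 of all genes were. Residuals of same-numbered mice correlated from -0.236 to 0.317, with 2 of 10 pairs over 0.1. Other pairs were not compared, so these values cannot show whether the replicate numbers pair the mice. A member at under 10 reads, as Ccdc153 and Tmem212 in Early SAFit2, has a level that these depths bound from above and do not resolve.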

Other observations

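After the correction for GC content and length, an alternative chosen after seeing the data, the 5 genes most like Enkur over the 22 mice were Cfap91 (r = 0.82), Nme9 (0.81), Iqca (0.81), Fhad1 (0.81) and Fam183b (0.79), of 16212 genes. Cfap91, Nme9 and Iqca belong to motile cilia, whereas Rmi1 and Rbbp9, the first and second in the uncorrected order, came to 0.66 and 0.59, at ranks 97 and 237. Among the members, Ccdc153 moved from rank 257 to rank 31 and 1700012B09Rik from 162 to 41, with r of 0.72 and 0.71. The r of Enkur with Tppp3 went from -0.57 to -0.35, and that with Foxj1 from -0.29 to 0.36.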
